A study of Homo sapiens with 12 samples.

Results

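The genes described here are 33 immediate early genes and feedback regulators of MAP kinases, followed in cells of the mantle cell lymphoma line Granta 519 in which SOX11 was silenced by siRNA. They comprise the subunits of the transcription factor AP-1, other early transcription factors, the IER proteins, phosphatases of MAP kinases and further inhibitors of the same pathway, and CD69. A gene was measured when a probe set was annotated with its symbol alone, and where several existed the one with the highest mean signal was used. Of the 33 genes, 32 had such a probe set, out of 18417 genes and 33297 probe sets on the array, while EGR2 was not analysed here. Of the 32, 31 had a single probe set and IER3 had 3, of which 2 held identical values.

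The series comprises 12 Affymetrix Human Gene 1.0 ST arrays, which read a transcript with many short probes along its length. For 4 arrays, Granta 519 cells were electroporated with 100 pmol of SOX11 siRNA per 4000000 cells. For the 4 control siRNA arrays, cells received the same amount of a non-targeting siRNA in the same way, and in both groups RNA was extracted 20 hours after transfection. The remaining 4 arrays were of untreated Granta 519 cells, and the sources used here do not describe these as electroporated, so that the electroporation, its solution and the control siRNA cannot be told apart in the comparison of control siRNA with untreated cells. All cells were of this established line and were grown in the same medium with fetal bovine serum, and the labels describe the RNA as coming from individual transfection experiments. The RNA was bulk RNA, in which a change in the number of cells that express a gene and a change in RNA per cell cannot be told apart.

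Immediate early genes are transcribed within minutes of a stimulus and need no new protein for their induction. RNA of the siRNA groups was taken 20 hours after transfection, and no earlier time was measured. A rise that had ended by then could not be seen. Growth factors and antigen receptors reach them through the ERK cascade and cellular stress through the kinases JNK and p38, which act on factors such as SRF with its ETS partners, CREB and JUN itself. Several of the induced genes encode inhibitors of the same kinases, among them dual-specificity phosphatases (DUSPs) and Sprouty proteins, which close a negative feedback loop. In B cells, engagement of the antigen receptor is a classical inducer of FOS, EGR1, the NR4A receptors and the surface protein CD69.

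The signal of SOX11, against which the siRNA is directed, was 188 to 229 with SOX11 siRNA, 1026 to 1191 with control siRNA and 978 to 1041 in untreated cells. Array medians ran from 69.2 to 91.8, both extremes being SOX11 siRNA arrays (replicates 3 and 4), and arrays of a group correlated at r = 0.989 to 0.995 across probe sets. The summed signal of 8 measured B cell markers of 9 listed was 9230 to 11400 with SOX11 siRNA, 9200 to 10900 with control siRNA and 10000 to 11200 in untreated cells. The sums of T and NK cell, myeloid and fibroblast markers lay between 307 and 532 on all arrays, and that of 5 epithelial markers was 473 to 664 with SOX11 siRNA, 483 to 639 with control siRNA and 479 to 557 in untreated cells. Of the 8 B cell markers, 3 lay above 0 and 5 below with SOX11 siRNA against untreated cells, and 2 above and 6 below with control siRNA. In each of these comparisons 1 of the 8 (12.5%) was called, where 2.4% of all probe sets were called with SOX11 siRNA and 0.387% with control siRNA. It was CD22, a surface protein of B cells, which was lower in both siRNA groups than in untreated cells (log2 fold change -0.48 with SOX11 siRNA and -0.53 with control siRNA, adjusted p = 0.0118 and 0.0169 from limma). The second of these calls was lost in 6 of 24 alternative analyses, with log2(value + 1) and without control siRNA replicate 3 or 4 or untreated replicate 1, 3 or 4 (adjusted p of up to 0.0798). Of the epithelial markers, 3 lay above 0 and 2 below with SOX11 siRNA against untreated cells. The keratin KRT18 was the 1 of 5 (20.0%) called there (0.57, adjusted p = 0.0203 from limma), where 2.4% of all probe sets were called. Its call was lost in 7 of 24 alternatives, 4 of them without a single array (SOX11 siRNA replicate 2 or untreated replicate 1, 2 or 3, with an adjusted p of up to 0.0753). KRT18 was at 0.56 with control siRNA against untreated cells (adjusted p = 0.062), and was called there in 11 of 24 alternatives (lowest adjusted p = 0.00605). The part of these markers in the results below was not tested.

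JUN and DUSP5 were higher in both siRNA groups than in untreated cells, and SPRY2 and RGS2 were higher with SOX11 siRNA than in untreated cells. None of the 32 genes was called lower in any comparison, and none was called between SOX11 siRNA and control siRNA. Differences were tested with limma on log2(value + 16) over all probe sets, and a gene was called at an adjusted p under 0.05. With SOX11 siRNA against untreated cells, 4 of 32 genes (12.5%) were called higher and 0 lower, where 0.805% of all probe sets were called higher, 1.6% lower and 2.4% in either direction. With control siRNA against untreated cells, 2 of 32 (6.25%) were called higher and 0 lower, where 0.171% of all probe sets were called higher, 0.216% lower and 0.387% in either direction. These shares include probe sets without a symbol and dim ones. In a fit of probe sets with 1 symbol, 5.33% were called in either direction with SOX11 siRNA (5 of 32 genes) and 1.44% with control siRNA (2 of 32). Without dim probe sets it was 6.52% (5 of 25 genes) and 1.49% (2 of 25). The untreated arrays serve as the baseline of both comparisons, which are therefore not independent. Between SOX11 siRNA and control siRNA, 0 of 32 were called by limma in the main analysis, and 0 had an unadjusted p under 0.05. Of all probe sets, 0.183% were called there (0.003% higher and 0.18% lower) and 4.26% had such a p. At the study's stricter threshold of an FDR of 0.002 and a 1.5-fold change, JUN was the 1 gene called, with SOX11 siRNA against untreated cells, where 0.132% of all probe sets were higher and 0.219% lower. At that threshold the shares of all probe sets were 0.027% higher and 0.012% lower with control siRNA against untreated cells, and 0.0% higher and 0.033% lower between the siRNA groups.

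**Figure D1:**
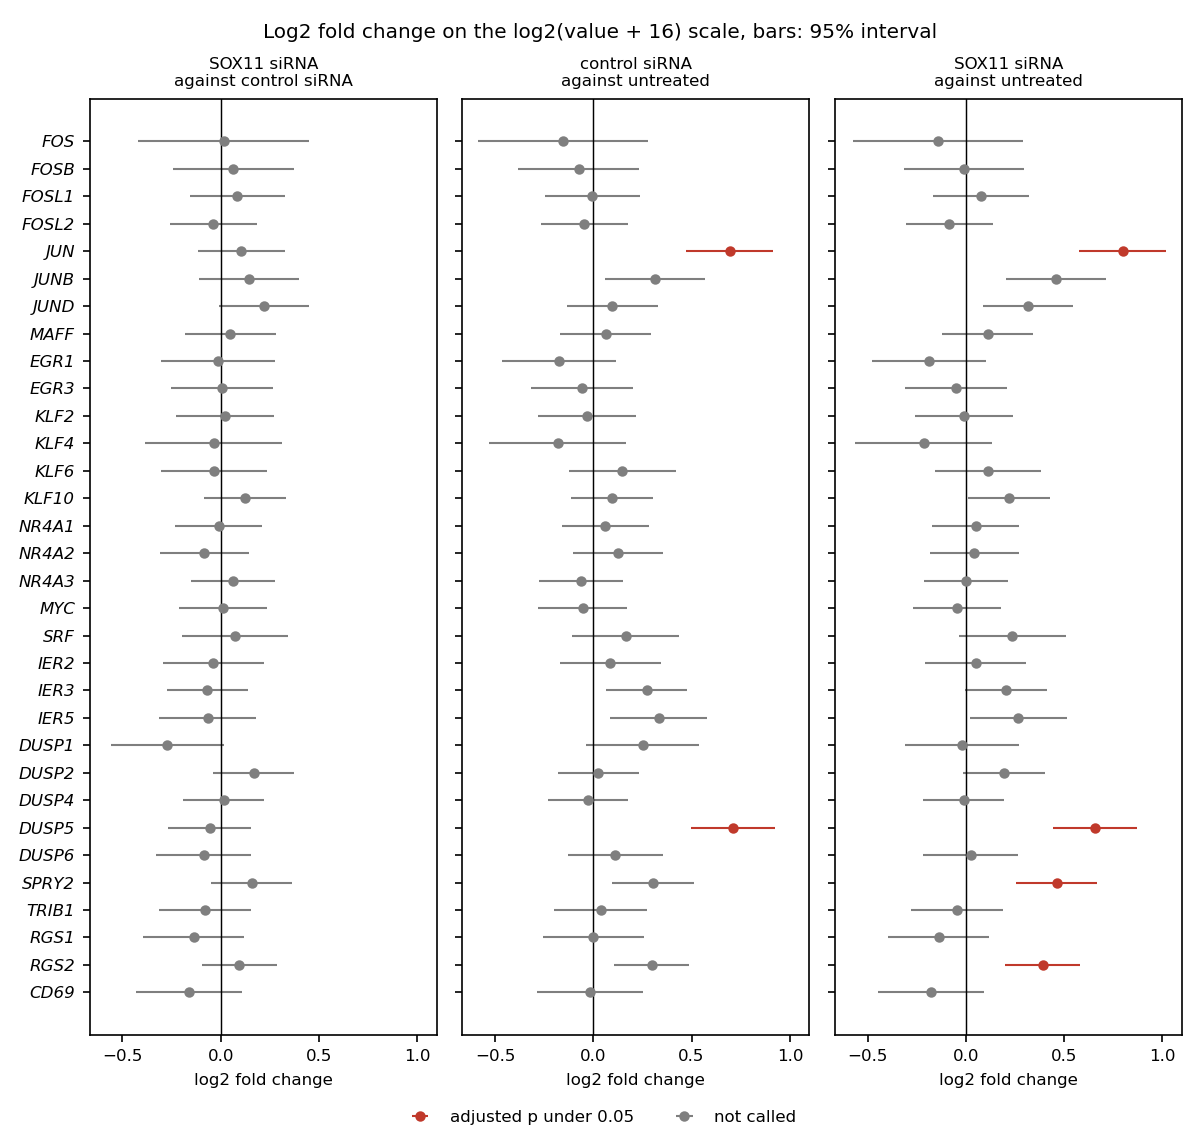
Log2 fold change of each of the 32 measured genes (horizontal axis, log2(value + 16) scale) in the comparisons of SOX11 siRNA with control siRNA (left), control siRNA with untreated cells (middle) and SOX11 siRNA with untreated cells (right), with bars for the 95% interval. Red points mark the genes called at an adjusted p under 0.05: JUN and DUSP5 in the middle, and these with SPRY2 and RGS2 on the right, whereas no gene is called on the left.

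JUN encodes the AP-1 subunit that is phosphorylated by JNK and is known to induce its own gene. Its signal on replicates 1 to 4 was 233, 216, 200 and 199 with SOX11 siRNA, 198, 213, 212 and 163 with control siRNA and 107, 105, 117 and 132 in untreated cells. Each siRNA array was above each untreated array, and the siRNA groups overlapped. The mean was 212 ± 15.8 with SOX11 siRNA, 197 ± 23.6 with control siRNA and 115 ± 12.5 in untreated cells (SD, n = 4 each). Relative to untreated cells this was 83.7% more with SOX11 siRNA (log2 fold change 0.80 with a standard error of 0.104, limma adjusted p = 0.000611) and 70.5% more with control siRNA (0.69 with a standard error of 0.104, limma adjusted p = 0.00634). Between SOX11 siRNA and control siRNA the log2 fold change was 0.10, with a 95% interval of -0.12 to 0.33.

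The promoter of JUN is printed because JUN has the largest difference from untreated cells among the 32 genes with SOX11 siRNA, and those of KLF6 and EGR1 for comparison, as genes that were not called. They are RefSeq sequences of build GRCh38.p14 from 250 bases before to 50 bases after the start site, read 5′ to 3′ along the gene. Capitals mark TGACATCA, a site bound by JUN-containing dimers in the JUN promoter, in JUN and KLF6, and CArG boxes, the binding motif of SRF, in EGR1. 
JUN (chr1:58783998-58784297, minus strand): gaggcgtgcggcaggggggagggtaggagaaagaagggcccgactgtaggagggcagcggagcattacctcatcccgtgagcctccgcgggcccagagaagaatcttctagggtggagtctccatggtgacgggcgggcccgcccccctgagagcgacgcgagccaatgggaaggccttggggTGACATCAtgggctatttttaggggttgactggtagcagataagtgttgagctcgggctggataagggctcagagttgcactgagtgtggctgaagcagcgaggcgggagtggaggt 
KLF6 (chr10:3785160-3785459, minus strand): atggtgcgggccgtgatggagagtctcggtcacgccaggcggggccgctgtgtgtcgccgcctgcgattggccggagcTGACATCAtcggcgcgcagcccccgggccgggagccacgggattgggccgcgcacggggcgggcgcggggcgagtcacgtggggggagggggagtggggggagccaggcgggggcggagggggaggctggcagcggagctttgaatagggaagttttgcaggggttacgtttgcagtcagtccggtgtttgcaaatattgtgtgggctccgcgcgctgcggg 
EGR1 (chr5:138465229-138465528, plus strand): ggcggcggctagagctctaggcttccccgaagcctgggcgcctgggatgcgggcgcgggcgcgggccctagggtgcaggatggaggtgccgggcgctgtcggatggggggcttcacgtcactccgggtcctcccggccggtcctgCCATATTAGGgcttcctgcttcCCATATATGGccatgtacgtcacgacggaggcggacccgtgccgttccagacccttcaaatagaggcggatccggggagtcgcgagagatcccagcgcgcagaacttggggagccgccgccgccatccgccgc

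In JUN the marked site lies at -67 to -60 from the start site and in KLF6 at -172 to -165. EGR1 has its CArG boxes at -105 to -96 and at -83 to -74. Promoter sequences of 23 of the 33 genes, with 30 start sites, were searched on both strands for 4 motifs. DUSP5, FOSL1, EGR3, IER3, DUSP4, KLF10, NR4A2, MYC, CD69 and TRIB1 had no sequence in the source used here and were not searched. TGACATCA was found in JUN and KLF6, against 2.61% of 35116 promoters. The cyclic AMP response element TGACGTCA, which CREB binds, was found in DUSP1, JUND and MAFF, against 1.85% of all promoters. The AP-1 site TGANTCA, with N for any base, was found in FOSL2, against 7.71%, and the CArG box in EGR1, EGR2 and SRF, against 1.29%. A match describes letters in these windows, and binding was not measured.

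JUNB and JUND, the other JUN subunits of AP-1, had higher mean signals in both siRNA groups than in untreated cells, but neither difference passed the test. JUNB had 455, 388, 366 and 398 with SOX11 siRNA, 373, 370, 387 and 318 with control siRNA and 259, 234, 341 and 326 in untreated cells. Each SOX11 siRNA array was above each untreated array, and control siRNA overlapped with untreated cells. The log2 fold change of JUNB against untreated cells was 0.46 with SOX11 siRNA (with a standard error of 0.120, limma adjusted p = 0.0574) and 0.32 with control siRNA (0.120, adjusted p = 0.446). The first of these lay close to the threshold and passed it in 9 of 24 alternative analyses, with an adjusted p between 0.0145 and 0.191. Among these were the analyses without SOX11 siRNA replicate 3 (adjusted p = 0.0489) and without untreated replicate 3 (0.0405). JUND, which is expressed in resting cells more steadily than JUN or JUNB, lay at 292 to 422 with SOX11 siRNA, 294 to 335 with control siRNA and 265 to 315 in untreated cells. Its log2 fold change was 0.32 with SOX11 siRNA against untreated cells (adjusted p = 0.16 from limma), and this passed the threshold in 4 of 24 alternatives, among them without SOX11 siRNA replicate 3, with a lowest adjusted p of 0.00647.

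FOS, the partner of JUN in the classical AP-1 dimer, was not called in any comparison. Its signal was 159, 134.5, 88.4 and 113 with SOX11 siRNA, 165, 138, 91.2 and 98.5 with control siRNA and 182, 163, 115 and 97.3 in untreated cells. The groups overlapped, and within each group replicates 1 and 2 were above replicates 3 and 4. That order of replicates was also seen within each group for DUSP1, KLF6, CD69 and IER2, and these genes were singled out after their values were seen. The log2 fold change of FOS against untreated cells was -0.14 with SOX11 siRNA (95% interval -0.57 to 0.29) and -0.15 with control siRNA (-0.59 to 0.28). Between the siRNA groups it was 0.01 (-0.42 to 0.45).

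FOSB, a FOS paralog with the same dimer partners, had 87.1, 77.2, 52.0 and 88.0 with SOX11 siRNA, 76.4, 68.4, 64.5 and 74.6 with control siRNA and 75.2, 85.5, 55.2 and 90.2 in untreated cells, and the groups overlapped. FOSL1 and FOSL2 encode the FOS-related subunits FRA1 and FRA2, which accumulate later than FOS after a stimulus. FOSL1 lay at 235 to 314 with SOX11 siRNA, 219 to 286 with control siRNA and 218 to 275 in untreated cells. FOSL2 lay at 56.5 to 76.9 with SOX11 siRNA, 61.1 to 76.0 with control siRNA and 61.6 to 79.7 in untreated cells. MAFF, a small MAF factor without a transactivation domain, lay at 50.8 to 73.1 with SOX11 siRNA, 49.4 to 66.7 with control siRNA and 48.0 to 56.7 in untreated cells. None of these genes was called, and their log2 fold changes against untreated cells were between -0.08 (FOSL2) and 0.11 (MAFF) with SOX11 siRNA and between -0.08 (FOSB) and 0.06 (MAFF) with control siRNA.

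**Figure D2:**
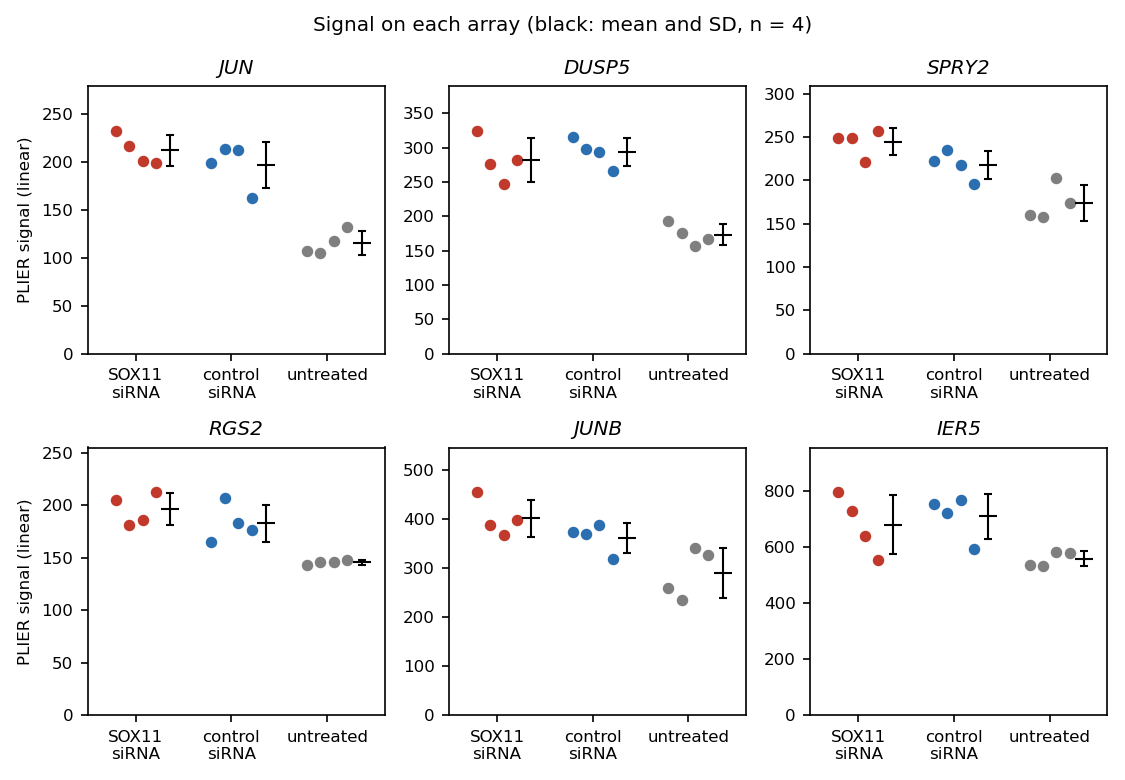
PLIER signal (linear, vertical axis) on each array for JUN, DUSP5, SPRY2, RGS2, JUNB and IER5 in SOX11 siRNA (red), control siRNA (blue) and untreated cells (grey), with the mean and SD of 4 arrays in black. For JUN and DUSP5 each siRNA array lies above each untreated array, with DUSP5 at 247 to 325 with SOX11 siRNA, 266 to 316 with control siRNA and 157 to 193 in untreated cells.

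DUSP5, a nuclear phosphatase that is specific for ERK and is itself induced through ERK, rose together with JUN in both siRNA groups. It had 325, 276, 247 and 282 with SOX11 siRNA, 316, 298, 294 and 266 with control siRNA and 193, 175, 157 and 167 in untreated cells. As for JUN, no siRNA array overlapped with an untreated array. The mean was 282 ± 32.4 with SOX11 siRNA, 293 ± 20.6 with control siRNA and 173 ± 15.4 in untreated cells (SD, n = 4 each). Against untreated cells this was 63.1% more with SOX11 siRNA (log2 fold change 0.66 with a standard error of 0.1, limma adjusted p = 0.00215) and 69.5% more with control siRNA (0.71 with a standard error of 0.1, limma adjusted p = 0.00456). Between the siRNA groups the log2 fold change of DUSP5 was -0.06, with a 95% interval of -0.27 to 0.16. JUN and DUSP5 were called against untreated cells in all 24 alternative analyses of both comparisons, with a highest adjusted p of 0.0484 for JUN and 0.0312 for DUSP5, both with control siRNA in the one-way analysis of variance that the study's methods name.

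The other 4 phosphatases on the list were not called in the main analysis. DUSP1, which acts on p38 and JNK as well as ERK, had 244, 218, 157 and 186 with SOX11 siRNA, 276, 265, 233 and 205 with control siRNA and 229, 223, 190 and 171 in untreated cells. Its log2 fold change between SOX11 siRNA and control siRNA was -0.27 (95% interval -0.56 to 0.02, unadjusted p = 0.0638 from limma), and the arrays overlapped. Against untreated cells it was -0.02 (-0.31 to 0.27) with SOX11 siRNA and 0.25 (-0.04 to 0.54) with control siRNA, where the control siRNA difference was called in 1 of 24 alternatives, the replicate block combined with quantile normalization (adjusted p = 0.0428). DUSP2, a nuclear phosphatase of activated lymphocytes, had 414, 354, 371 and 353 with SOX11 siRNA, 355, 331, 343 and 293 with control siRNA and 315, 287, 359 and 337 in untreated cells. Its groups overlapped, and its log2 fold change was 0.19 (-0.01 to 0.40) with SOX11 siRNA and 0.03 (-0.18 to 0.23) with control siRNA, both against untreated cells. DUSP6, a cytoplasmic phosphatase specific for ERK, was dim, with 15.7, 16.3, 9.07 and 15.4 with SOX11 siRNA, 15.4, 19.4, 15.5 and 13.2 with control siRNA and 9.25, 17.3, 15.9 and 12 in untreated cells. These signals are near the 16 that was added before taking logarithms, which makes the fold changes of such dim genes smaller. DUSP4, another nuclear phosphatase, lay at 33 to 42.4 with SOX11 siRNA, 32.2 to 46.2 with control siRNA and 36.1 to 41.1 in untreated cells.

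SPRY2 and RGS2 were called with SOX11 siRNA against untreated cells. SPRY2 encodes a Sprouty protein that restrains growth factor signalling upstream of ERK. Its signal was 249, 249, 222 and 257 with SOX11 siRNA, 222, 234, 217 and 196 with control siRNA and 160, 157, 203 and 174 in untreated cells. The SOX11 siRNA arrays were all above the untreated arrays, and 1 control siRNA array (196) lay below the highest untreated array. SPRY2 was 40.7% higher with SOX11 siRNA (log2 fold change 0.46 with a standard error of 0.0974, limma adjusted p = 0.0199) and at 0.30 with control siRNA (with a standard error of 0.0974, limma adjusted p = 0.304). Between the siRNA groups the log2 fold change was 0.16, with a 95% interval of -0.05 to 0.36, so that SPRY2 was not shown to differ between them. The call of SPRY2 was lost in a fit of the 8 arrays compared (adjusted p = 0.0562), without SOX11 siRNA replicate 2 (0.0553) and without untreated replicate 1 (0.0798), 2 (0.0753) or 4 (0.0578). With control siRNA against untreated cells SPRY2 was called in 3 of 24 alternatives, with quantile normalization (adjusted p = 0.0393), the same with the replicate block (0.0472) and array weights (0.0358).

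RGS2 encodes a GTPase-activating protein that terminates signalling by Gq-coupled receptors. It had 205, 181, 186 and 213 with SOX11 siRNA, 165, 207, 183 and 177 with control siRNA and 143, 146, 146 and 148 in untreated cells. The untreated arrays lay close together, and all siRNA arrays were above them. The log2 fold change against untreated cells was 0.39 with SOX11 siRNA (with a standard error of 0.0897, limma adjusted p = 0.0311) and 0.30 with control siRNA (with a standard error of 0.0897, limma adjusted p = 0.26), and between the siRNA groups it was 0.10 (95% interval -0.10 to 0.29). This call was lost with log2(value + 1) (adjusted p = 0.05), in a fit of the 8 arrays compared (0.0677), with the replicate block (0.0649), and on leaving out SOX11 siRNA replicate 1 (0.0682) or 4 (0.0659), control siRNA replicate 3 (0.0517) or untreated replicate 1 (0.104), 2 (0.0843), 3 (0.0706) or 4 (0.0792). With control siRNA RGS2 was called in 2 of 24 alternatives, quantile normalization without the replicate block (adjusted p = 0.0237) and with it (0.0317). RGS1, a related protein of activated B cells, had 541, 419, 456 and 518 with SOX11 siRNA, 457, 603, 550 and 526 with control siRNA and 527, 434, 601 and 578 in untreated cells, and was not called. TRIB1, a pseudokinase scaffold that binds MAP kinase kinases, lay at 101 to 159 with SOX11 siRNA, 135 to 147 with control siRNA and 129 to 146 in untreated cells and was not called. CD69, a surface protein of activated lymphocytes, had 865, 752, 610 and 681 with SOX11 siRNA, 886, 902, 712 and 748 with control siRNA and 984, 828, 760 and 718 in untreated cells. The CD69 groups overlapped, and its log2 fold change was -0.18 (-0.45 to 0.09) with SOX11 siRNA and -0.02 (-0.29 to 0.25) with control siRNA, both against untreated cells.

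**Figure D3:**
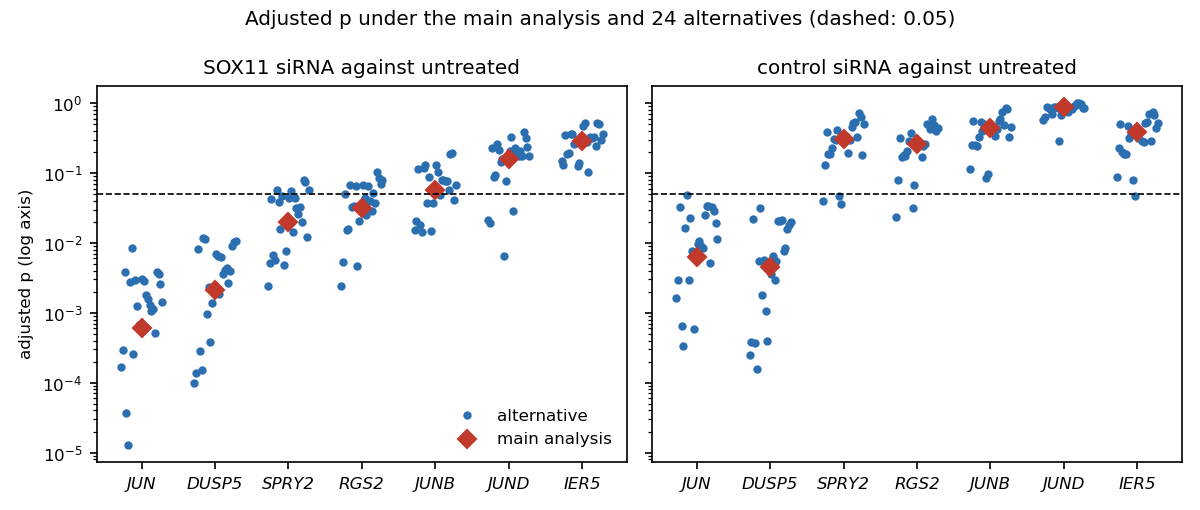
Adjusted p (vertical axis, log scale) of 7 genes against untreated cells in the main analysis (red diamonds) and in 24 alternative analyses (blue points), for SOX11 siRNA (left) and control siRNA (right). All points of JUN and DUSP5 lie below the dashed line at 0.05, those of SPRY2 and RGS2 lie on both sides of it, and JUNB passes it in 9 of 24 alternatives with SOX11 siRNA.

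EGR1, a zinc finger factor that is among the fastest targets of ERK, was not called in any comparison. It had 329, 277, 245 and 374 with SOX11 siRNA, 363, 327, 295 and 248 with control siRNA and 399, 343, 334 and 316 in untreated cells. The groups overlapped, and the log2 fold change against untreated cells was -0.19 (95% interval -0.48 to 0.10) with SOX11 siRNA and -0.17 (-0.46 to 0.11) with control siRNA. EGR3, its paralog in lymphocytes, lay at 73.7 to 112 with SOX11 siRNA, 73.7 to 96.5 with control siRNA and 78.9 to 104 in untreated cells.

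Of the Krüppel-like factors, zinc finger proteins that bind GC-rich promoter elements, none was called. KLF2, which holds lymphocytes in quiescence, had 729, 521, 571 and 693 with SOX11 siRNA, 630, 630, 698 and 510 with control siRNA and 648, 612, 624 and 627 in untreated cells. The untreated arrays of KLF2 lay within the range of both siRNA groups. KLF6 had 617, 575, 453 and 481 with SOX11 siRNA, 620, 588, 554 and 422 with control siRNA and 534, 503, 462 and 451 in untreated cells. KLF6 overlapped between groups, and its log2 fold change against untreated cells was 0.11 (-0.16 to 0.38) with SOX11 siRNA and 0.15 (-0.12 to 0.42) with control siRNA. Its promoter carries TGACATCA, as that of JUN does, and the part of this site in either gene was not tested. KLF4 lay at 96.2 to 202 with SOX11 siRNA, 123 to 148 with control siRNA and 131 to 188 in untreated cells. KLF10, a factor induced early by TGF-beta, lay at 351 to 467 with SOX11 siRNA, 360 to 425 with control siRNA and 337 to 371 in untreated cells. KLF10 had a log2 fold change of 0.22 (0.01 to 0.43) with SOX11 siRNA against untreated cells, with an adjusted p of 0.31 from limma, and passed the threshold in 2 of 24 alternatives.

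The NR4A receptors are orphan nuclear receptors that B cells induce after antigen receptor engagement, and none was called. NR4A1 had 99.4, 74.6, 68.5 and 92.7 with SOX11 siRNA, 89.1, 84.2, 78.4 and 83.5 with control siRNA and 81.9, 76.3, 75.2 and 85.5 in untreated cells. The SOX11 siRNA arrays of NR4A1 spanned the values of both other groups. NR4A2 lay at 36.4 to 47.7 with SOX11 siRNA, 41.0 to 54.2 with control siRNA and 35.6 to 50.9 in untreated cells. NR4A3 lay at 36.4 to 54.7 with SOX11 siRNA, 37.8 to 44.2 with control siRNA and 40.8 to 46.6 in untreated cells. The log2 fold changes of these receptors against untreated cells ran between 0.00 (NR4A3) and 0.05 (NR4A1) with SOX11 siRNA and between -0.06 (NR4A3) and 0.13 (NR4A2) with control siRNA.

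MYC, the growth-promoting factor, had 988, 847, 778 and 795 with SOX11 siRNA, 812, 893, 947 and 731 with control siRNA and 859, 805, 891 and 951 in untreated cells. Its groups overlapped, and its log2 fold change was 0.01 between the siRNA groups (-0.21 to 0.24), -0.04 with SOX11 siRNA against untreated cells (-0.27 to 0.18) and -0.05 with control siRNA against untreated cells (-0.28 to 0.17). SRF, the factor that binds CArG boxes and drives many immediate early genes, had 468, 479, 370 and 600 with SOX11 siRNA, 455, 502, 398 and 446 with control siRNA and 370, 369, 410 and 452 in untreated cells. SRF overlapped between groups too, with log2 fold changes of 0.24 (-0.04 to 0.51) for SOX11 siRNA and 0.16 (-0.11 to 0.44) for control siRNA against untreated cells.

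The IER genes are immediate early genes by name, of which IER3 and IER5 are also known to respond to cellular stress. IER2 had 767, 745, 621 and 571 with SOX11 siRNA, 767, 739, 729 and 545 with control siRNA and 698, 634, 633 and 631 in untreated cells, and the groups overlapped. IER3 lay at 84.0 to 103 with SOX11 siRNA, 88.5 to 108 with control siRNA and 66.1 to 87.9 in untreated cells. IER5 lay at 555 to 796 with SOX11 siRNA, 593 to 768 with control siRNA and 533 to 582 in untreated cells. For IER3 and IER5 each control siRNA array was above each untreated array, with log2 fold changes of 0.27 (adjusted p = 0.42 from limma) and 0.33 (adjusted p = 0.38 from limma), which did not pass the test. IER5 passed it in 1 of 24 alternatives, with array weights (adjusted p = 0.0465).

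**Figure D4:**
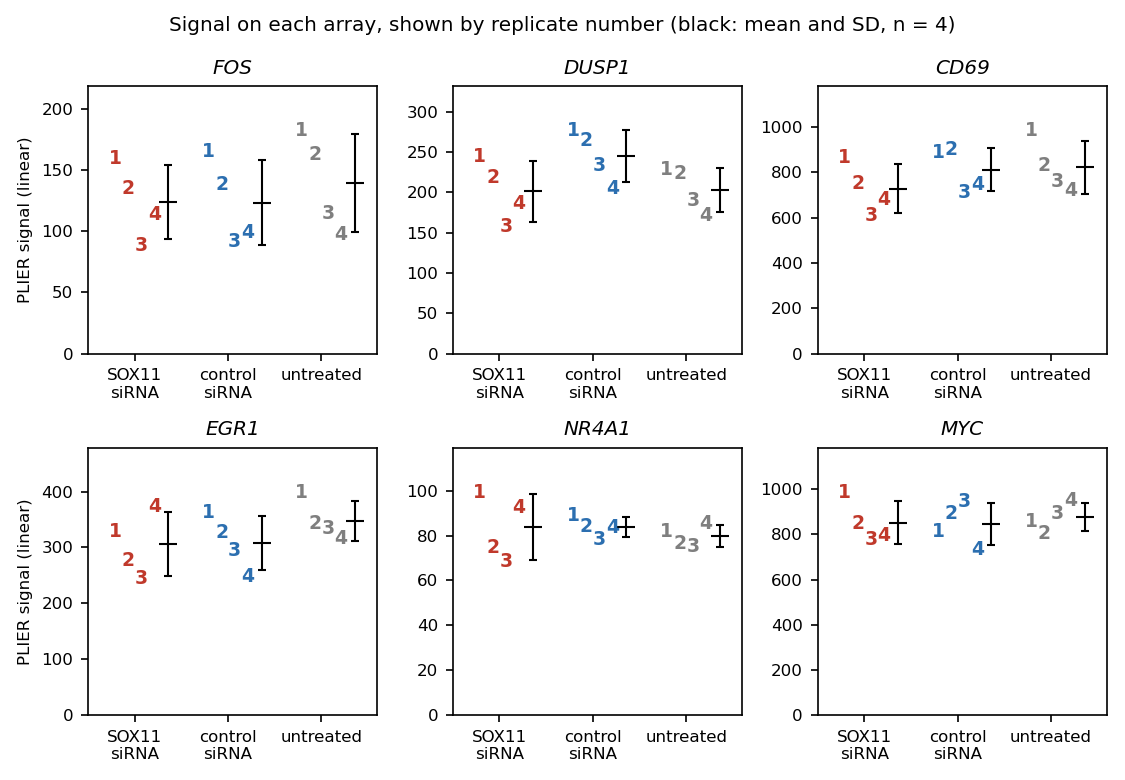
PLIER signal (linear, vertical axis) on each array for FOS, DUSP1, CD69, EGR1, NR4A1 and MYC, drawn as the replicate number, in SOX11 siRNA (red), control siRNA (blue) and untreated cells (grey), with the mean and SD of 4 arrays in black. The groups overlap for all 6 genes, and for FOS, DUSP1 and CD69 the digits 1 and 2 stand above 3 and 4 in each group, as in the SOX11 siRNA signals of FOS of 159, 134.5, 88.4 and 113.

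Over the 32 genes, the number whose siRNA arrays were all above the untreated arrays was 5 with SOX11 siRNA (JUN, JUNB, DUSP5, RGS2 and SPRY2) and 5 with control siRNA (JUN, DUSP5, IER3, IER5 and RGS2). This was 15.6% of the genes in both comparisons, against 2.3% of all probe sets with SOX11 siRNA and 2.11% with control siRNA. In the other direction it was 0 of 32 in both, against 5.54% and 5.85% of all probe sets. An unadjusted p under 0.05 was found for 8 of 32 genes with SOX11 siRNA, where 14.9% of all probe sets had one, and for 7 of 32 with control siRNA, where 8.57% had one. The median log2 fold change against untreated cells was 0.05 with SOX11 siRNA (-0.06 over all probe sets) and 0.06 with control siRNA (-0.06 over all probe sets), with 18 genes above 0 and 14 below in the first comparison and 19 above and 13 below in the second.

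Between SOX11 siRNA and control siRNA, the groups that differ in the siRNA alone, 17 of 32 genes had a log2 fold change above 0 and 15 below, with a median of 0.01 over these genes and 0.01 over all probe sets. The values ran between -0.27 for DUSP1 and 0.22 for JUND, which had a 95% interval of -0.01 to 0.45. In no gene were the arrays of the groups separate, where this held for 0.601% of all probe sets higher with SOX11 siRNA and 1.35% lower. In the main analysis the 95% intervals of all 32 genes included 0, and the widest, that of FOS, reached -0.42 and 0.45. Intervals of the 24 alternatives are not given here. Among those alternatives 0 of the 32 genes were called, and the adjusted p fell to 0.0904 for DUSP1 and 0.182 for JUND.

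The genes around this set were read from lists of the same pathways. Of 24 listed genes of the ERK cascade, from RAS activators to the RSK kinases, 18 had a probe set. Of these, 1 was called with SOX11 siRNA against untreated cells, where 1.6% of all probe sets were called lower: RASGRP1, a RAS activator of lymphocytes (log2 fold change -0.52, adjusted p = 0.0181 from limma), which was at -0.41 with control siRNA (adjusted p = 0.141). MAPK3, which encodes ERK1, had 188 ± 32.0 with SOX11 siRNA, 176 ± 6.71 with control siRNA and 244 ± 24 in untreated cells (SD, n = 4 each), with log2 fold changes against untreated cells of -0.36 (adjusted p = 0.126) and -0.44 (adjusted p = 0.146). RASGRP3, another RAS activator, was at -0.36 (adjusted p = 0.075) and KSR1, a scaffold of the cascade, at 0.42 (adjusted p = 0.0754) with SOX11 siRNA against untreated cells. Of 15 stress MAP kinases and their activators, 13 were measured, and in the same comparison MAP2K3, which activates p38, was higher (0.57, adjusted p = 0.00873) and MAPK13, p38 delta, was lower (-0.43, adjusted p = 0.0393). Of the 13 genes, 6 lay above 0 and 7 below there, where 0.805% of all probe sets were called higher and 1.6% lower. In the main analysis none of the genes of these pathways was called with control siRNA against untreated cells or between the siRNA groups. Of all probe sets, 0.387% and 0.183% were called in these comparisons. With control siRNA against untreated cells MAPK3 was called in 6 of 24 alternatives (lowest adjusted p = 0.013), RASGRP1 in 5 (0.0148), MAP2K3 in 4 (0.003) and KSR1 in 1 of 23 (0.0428). With SOX11 siRNA against untreated cells RASGRP3 was called in 4 of 24 (0.00206), MAPK3 in 2 of 24 (0.0145) and KSR1 in 5 of 23 (0.00914).

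Of 20 factors that switch immediate early genes on, 17 were measured and 0 called in any comparison of the main analysis. Of all probe sets, 2.4% were called with SOX11 siRNA and 0.387% with control siRNA against untreated cells, and 0.183% between the siRNA groups. Of the 17 factors, 5 had an unadjusted p under 0.05 with SOX11 siRNA against untreated cells, where 14.9% of all probe sets had one. Nearest to the threshold in this comparison were ETS1, at -0.46 (adjusted p = 0.0522 from limma), and CRTC2, a coactivator of CREB, at 0.32 (adjusted p = 0.0803). ETS1 was called there in 7 of 24 alternatives (lowest adjusted p = 0.00485), CRTC2 in 5 (0.0065), ELK3 in 4 (0.0144) and MEF2A in 4 (0.0276). Of 14 other dimer partners of FOS and JUN, 12 were measured and 0 called in the main analysis. With SOX11 siRNA against untreated cells, 3 of the 12 had an unadjusted p under 0.05. JDP2, a repressor that pairs with JUN, was at -0.52 (adjusted p = 0.0717) with SOX11 siRNA and at -0.50 (adjusted p = 0.198) with control siRNA, and ATF4, the effector of the integrated stress response, was at -0.39 (adjusted p = 0.132) and -0.32 (adjusted p = 0.48). With SOX11 siRNA against untreated cells JDP2 was called in 6 of 24 alternatives (lowest adjusted p = 0.0129) and ATF4 in 3 (0.0152). JDP2 was called in 1 of 24 with control siRNA (0.04).

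Among 42 other early response genes, of which 41 were measured, 5 were higher and 2 lower with SOX11 siRNA than in untreated cells, 1 was higher with control siRNA, and 0 were called between the siRNA groups. Over all probe sets, 0.805% were called higher and 1.6% lower with SOX11 siRNA and 0.171% higher with control siRNA, both against untreated cells. Between the siRNA groups 0.183% were called in either direction. PLK2, a polo-like kinase induced by stress and by serum, had 154, 137, 117 and 131 with SOX11 siRNA, 98.5, 138, 135 and 100 with control siRNA and 32.1, 36.1, 59.5 and 52.1 in untreated cells. The siRNA arrays of PLK2 were all above the untreated arrays, and the log2 fold change was 1.32 with SOX11 siRNA (adjusted p = 0.000236 from limma) and 1.15 with control siRNA (adjusted p = 0.00232 from limma). ZFP36, which encodes the mRNA decay factor tristetraprolin, had 164, 167, 133 and 157 with SOX11 siRNA, 107, 123, 89.8 and 124 with control siRNA and 85.3, 82.8, 86.2 and 89.8 in untreated cells. Each SOX11 siRNA array of ZFP36 was above each control siRNA array, with a log2 fold change of 0.44 (95% interval 0.21 to 0.66) that did not pass the test (adjusted p = 0.188 from limma). Against untreated cells ZFP36 was higher with SOX11 siRNA (0.74, adjusted p = 0.00107) and was at 0.31 with control siRNA (adjusted p = 0.354).

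The other 3 early response genes that were higher with SOX11 siRNA than in untreated cells were GADD45A, a stress sensor that binds MAP3K4 (0.58, adjusted p = 0.029 from limma), ID3, an inhibitor of E proteins (0.56, adjusted p = 0.0131), and ZFP36L2, a paralog of ZFP36 (0.40, adjusted p = 0.0302). With control siRNA they were at 0.58 (adjusted p = 0.0758), 0.46 (adjusted p = 0.0985) and 0.23 (adjusted p = 0.464) against untreated cells. Between the siRNA groups they were at -0.001, 0.10 and 0.16. PIM1, a kinase of lymphocyte survival, and ETV4, an ETS factor downstream of ERK, were lower with SOX11 siRNA (-0.49, adjusted p = 0.045, and -0.48, adjusted p = 0.0151) and were at -0.32 (adjusted p = 0.44) and -0.29 (adjusted p = 0.341) with control siRNA, all against untreated cells. Of 26 other feedback inhibitors, 25 were measured, and 2 were higher with SOX11 siRNA than in untreated cells, where 0.805% of all probe sets were: DUSP14, a small dual-specificity phosphatase (0.53, adjusted p = 0.00717), and PEA15, which retains ERK in the cytoplasm (0.40, adjusted p = 0.0314). SPRED1, a relative of the Sprouty proteins, was at 0.39 (adjusted p = 0.0573) in that comparison, and TRIB2, a paralog of TRIB1, at 0.46 (adjusted p = 0.0921) with control siRNA against untreated cells. In these comparisons SPRED1 was called in 8 of 24 alternatives (lowest adjusted p = 0.00339) and TRIB2 in 4 of 23 (0.0209). TRIB2 was the gene of these inhibitors with the smallest p between the siRNA groups, at -0.28 (unadjusted p = 0.0178, adjusted p = 0.92).

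**Figure D5:**
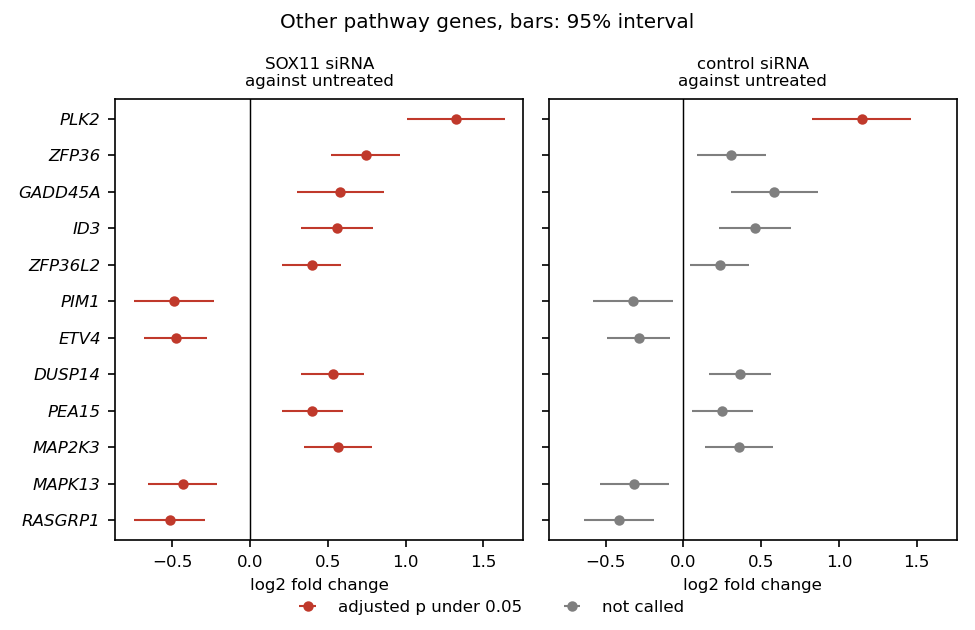
Log2 fold change (horizontal axis, log2(value + 16) scale) of the 12 pathway genes that were called with SOX11 siRNA against untreated cells (left), beside the same genes with control siRNA against untreated cells (right), with bars for the 95% interval and red for an adjusted p under 0.05. PLK2, at 1.32 and 1.15, is the only one called in both in the main analysis, and the untreated arrays are shared by the panels.

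For DUSP14, MAP2K3, PLK2 and ZFP36 the call with SOX11 siRNA against untreated cells held in all 24 alternative analyses. With control siRNA against untreated cells DUSP14 was called in 4 of the 24, and GADD45A and ID3 in 6 each (lowest adjusted p = 0.00926 and 0.00579). PEA15 and PIM1 were called there in 1 each. The call with SOX11 siRNA was lost for ID3 without untreated replicate 2 (adjusted p = 0.0526) and for ETV4 without untreated replicate 4 (0.0582), each in 1 alternative. RASGRP1 lost it in 4, without untreated replicate 3 or 4, in the fit of the 8 arrays compared and in the methods' analysis of variance, with an adjusted p of up to 0.0571. GADD45A lost its call in 7 alternatives, without SOX11 siRNA replicate 1 or 2 or untreated replicate 1 or 2, with log2(value + 1), in the fit of 8 arrays and in the analysis of variance (adjusted p of up to 0.11). PEA15 and ZFP36L2 lost theirs in 10 alternatives each, of which log2(value + 1), the fit of 8 arrays, the replicate block and leaving out SOX11 siRNA replicate 1 or 2 or any untreated array were common to both. The tenth was leaving out control siRNA replicate 3 for PEA15 (up to 0.117) and SOX11 siRNA replicate 4 for ZFP36L2 (up to 0.124). MAPK13 lost its call in 13 alternatives, with median centring, log2(value + 1), the fit of 8 arrays, the analysis of variance, and without SOX11 siRNA replicate 2, 3 or 4, control siRNA replicate 1 or 3 or any untreated array (up to 0.138). PIM1 lost its call in 15, the same ones with array weights and without control siRNA replicate 2 added (up to 0.159).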

How the data were processed

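RNA of 12 samples, 4 per group, was measured on Affymetrix Human Gene 1.0 ST arrays. The authors deposited linear intensity values per probe set and array, made with PLIER in Affymetrix Expression Console 1.1 with background taken from probes of equal GC content and arrays scaled to a common median, per the file headers and the submitters' processing notes. Over all probe sets, the medians of the deposited values nevertheless differed between arrays, from 69.2 to 91.8. The RMA values behind the study's own statistics were not used here. The 2 deposited tables differed in 0 cells, and 12 columns of group means, fold changes and p-values by the authors were not used. For the array annotation, build and release were not given in the sources used here, and coordinates are those of the RefSeq promoters.

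Groups came from the sample titles. The deposited intensities of 33297 probe sets were transformed as log2(value + 16), unfiltered and not normalized further. A single model of the 3 groups was fitted in R 4.3.3 with the functions lmFit and eBayes of limma 3.58.1, with Benjamini-Hochberg adjustment over all probe sets and a call at an adjusted p under 0.05. Of the probe sets, 19460 list 1 symbol, 1754 several and 12083 none. The added 16 understates the log2 fold changes of dim genes, percentages refer to linear means, and levels were not compared between genes. No read depth applies, and 4 arrays per group limit the precision. The p-values measure the spread between these cultures of 1 cell line, with transfected and untreated ones sharing a single estimate of it.

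The 33 genes, the pathway and marker lists and the tests were chosen with earlier results of these data known. Values on each array are given for genes called in at least 1 comparison and for FOS, FOSB, JUN, JUNB, EGR1, IER2, DUSP1, DUSP2, DUSP6, KLF2, KLF6, NR4A1, MYC, SRF, CD69 and RGS1, and those of the others by range. From each pathway list, called genes and at most 2 further genes per comparison with the smallest p could be named. PLK2 and ZFP36 were given on each array after their values were seen. The 24 alternatives were quantile normalization, median centring, log2(value + 1), leaving out dim probe sets, probe sets with 1 symbol, array weights, the one-way analysis of variance of the methods, a fit limited to the 8 arrays compared, a robust prior with a trend, the replicate number as a block (alone, and combined with quantile normalization), the mean of all probe sets of a gene, and leaving out each of the 12 arrays. The fit was tested on simulated data with known changes between SOX11 siRNA and control siRNA. It recovered 59.7% of 67 changes of 1.5-fold, 92.5% of 67 of 2-fold and 100% of 66 of 4-fold, so that small changes can be missed. Changes under 1.5-fold were not simulated.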

Additional observations from a re-analysis of the deposited data

Results flagged for a closer look

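Of 96 groups of 4 arrays examined, 4 had an array that stood apart from the others, with a gap to the nearest array, as a share of the group's range on the log2 scale, above Dixon's 95% critical value. Chance alone marks about 1 in 20 such groups. JUND was at 334.75 on control siRNA replicate 2 and at 294.14 to 300.53 on the other control siRNA arrays, a gap of 0.834 of that range. IER2 was at 545.47 on control siRNA replicate 4, against 729.32 to 767.2 on the other control siRNA arrays (0.851), and at 697.94 on untreated replicate 1, against 631.48 to 633.84 on the other untreated arrays (0.963). DUSP6, which was dim, was at 9.07 on SOX11 siRNA replicate 3 and at 15.4 to 16.3 on the other SOX11 siRNA arrays (0.888). None of these 3 genes was called in any comparison of the main analysis.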

How the results depend on the processing

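Of 96 results, the 32 genes in 3 comparisons, 9 changed their side of the threshold in some alternative and 0 called results changed sign. Between SOX11 siRNA and control siRNA 0 of the 32 genes were called in all 24 alternatives. With SOX11 siRNA against untreated cells the number called was 4 in the main analysis, 7 with quantile normalization, with or without the replicate block, 2 in the fit of the 8 arrays compared, and 2 to 6 when 1 array was left out (2 without untreated replicate 1, 2 or 4, and 6 without SOX11 siRNA replicate 3). With control siRNA against untreated cells it was 2, 4 with quantile normalization or array weights, 5 with quantile normalization and the replicate block, and 2 without any 1 array. Over all probe sets, SOX11 siRNA against untreated cells gave 800 calls, 2378 with quantile normalization, 1321 with median centring, 463 with log2(value + 1), 445 in the fit of 8 arrays, 433 in the methods' analysis of variance, 2419 with quantile normalization and the replicate block, and 360 to 1179 without 1 array. Control siRNA against untreated cells gave 129 calls, 644 with quantile normalization, 62 with log2(value + 1), 280 for probe sets with 1 symbol, 248 when dim ones were left out, 217 in the fit of 8 arrays, 40 in the analysis of variance, 628 with quantile normalization and the replicate block, 517 with array weights, and 70 to 232 without 1 array. SOX11 siRNA against control siRNA gave 61 calls, 225 with quantile normalization, 38 with log2(value + 1), 26 in the fit of 8 arrays, 29 in the analysis of variance, 174 with quantile normalization and the replicate block, and 27 to 70 without 1 array. The cause of these differences was not tested.

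Median centring moved the median log2 fold change of all probe sets with SOX11 siRNA against untreated cells by 0.10, to 0.05, and the share of calls that were higher was 33.5% in the main analysis, 53.2% with quantile normalization and 71.0% with centring. With control siRNA against untreated cells that share was 44.2%, 54.7% and 69.2%. JUN and DUSP5 were called higher in both comparisons under each of these scalings. In the methods' analysis of variance PLK2 lost its call with control siRNA (adjusted p = 0.0584).

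The arrays carry replicate numbers 1 to 4 in each group. Deviations of same-numbered arrays from their group means correlated at -0.251 to 0.289, above 0.1 in 3 of 12 pairs, and 4 of 12 arrays correlated best with their own number, so the numbers were not taken as pairing the samples in the main analysis. This check was made over all probe sets. FOS, DUSP1, KLF6, CD69 and IER2 did share an order of replicates between groups, and their intervals in the main analysis include that shared difference. With the replicate block the calls were 711 for SOX11 siRNA and 121 for control siRNA against untreated cells and 51 between the siRNA groups, and 3, 2 and 0 of the 32 genes, with RGS2 at an adjusted p of 0.0649.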
